A study of Danio rerio with 6 samples.

Results

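By 72 hours after fertilization the zebrafish, Danio rerio, has hatched or is hatching and holds nearly all larval organs. Of the 6 whole-embryo RNA-seq samples of the series, the 3 labelled wild type, lettered a, b and c, are described here. They were chosen by that label alone. The other 3 are rhpn2 mutants of the same age and enter no value below. Embryos were kept in E3 medium at 28.5 °C, and the labels give no strain, clutch, number of pooled embryos, sex or time of collection. Whether the 3 samples came from separate clutches is therefore not known, and the spread between them may be partly technical. All 3 belong to 1 group, so no test between conditions was made and no p-value is given.

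At this age the trunk is mostly skeletal muscle, made of a large fast-twitch mass and a thin superficial slow-twitch layer. The eye is large, with a lens packed with crystallins and a retina that has begun to see. The yolk still feeds the embryo: its surface layer packages lipid with apolipoproteins, while liver, pancreas and gut begin their own work. Red cells carry embryonic globins, and lymphocytes are only starting to form in the thymus. In whole-embryo RNA, fewer cells of a type and less RNA per cell cannot be told apart.

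The deposited table held counts and FPKM, the count scaled to exonic length and to the sample's own total count. The libraries summed to 15203791 counts for wild type a, 14918069 for b and 15258723 for c. The gene rhpn2, which is mutated in the other samples, was at 10.8, 12.1 and 11.6 FPKM. Of 31624 genes, 6222 had no count in any of the 3 samples, and 16706 reached 1 FPKM in all 3. The mean over samples reached 1 FPKM for 17593 genes, the set called expressed below, which is 55.6% of the table. Levels of 10, 100 and 1000 FPKM were reached in all 3 samples by 5294, 539 and 73 genes.

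Wild type a stood apart from the other 2 samples. A chi-square comparison of counts over 19819 genes averaging 10 or more gave 11.9 for each degree of freedom between a and b, 14.6 between a and c, and 4.22 between b and c. All 3 values exceed 1, the level of sampling noise, so each library was kept as its own sample. Across the 16706 genes, Pearson's r of log2 FPKM was 0.980 for a and b, 0.981 for a and c, and 0.989 for b and c. These r values are across genes, which are not independent replicates. Genes of short exonic size read higher in a, and genes of long exonic size lower. Of the 17593 expressed genes, 29.5% were highest in a, 29.9% in b and 40.6% in c, while 48.8%, 28.1% and 23.1% were lowest in a, b and c. The biological and the median coefficient of variation over genes are given below with and without a. Most other values include it.

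The most abundant messages came from muscle. The highest mean level was that of actc1b, a striated muscle alpha-actin, with 16252 FPKM in a, 14973 in b and 14138 in c (15121 ± 1065, mean ± SD, n = 3). The calcium-buffering parvalbumins pvalb1 and pvalb2 followed at 7066 ± 932 and 5387 ± 605 FPKM. Of the 30 genes with the highest mean FPKM, 10 were fast muscle genes. They included mylpfa, a fast myosin regulatory light chain at 4237 ± 269 FPKM, and the muscle creatine kinases ckmb and ckma at 3935 ± 264 and 3168 ± 194. Tropomyosin tpma stood at 2412 ± 239 FPKM and troponin C tnnc2 at 2228 ± 162. Each of these 8 genes was highest in a and lowest in c.

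Mitochondrially encoded messages gave 5 of the 30. The cytochrome oxidase subunits mt-co1, mt-co2 and mt-co3 were at 5262 ± 457, 4844 ± 675 and 3988 ± 483 FPKM. The ATP synthase subunit mt-atp6 was at 3465 ± 379 and cytochrome b, mt-cyb, at 2164 ± 168. In all 5, wild type b held the lowest value. The nuclear gene slc25a5, an ADP/ATP carrier of the mitochondrial inner membrane, was at 3153, 2994 and 2868 FPKM in a, b and c.

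Lipid carriers and skin keratins came next. Apolipoproteins apoa1a and apoa1b, the main proteins of high-density lipoprotein, were at 4585 ± 479 and 4313 ± 319 FPKM, and apoa2 at 3871 ± 354. The keratin krt4 of the outer epidermal layer stood at 4278 ± 252 FPKM and krtt1c19e of the basal layer at 2303 ± 95. The alpha globin hbae3 was at 2468 ± 168 FPKM, and bhmt, a betaine-homocysteine methyltransferase, at 2291 ± 136. The elongation factor eef1a1l1 reached 2528 ± 111 FPKM. Ribosomal protein genes gave 6 of the 30, led by RPL41 at 3116 ± 458, rpl26 at 2325 ± 222 and RPL37A at 2266 ± 266.

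**Figure D1:**
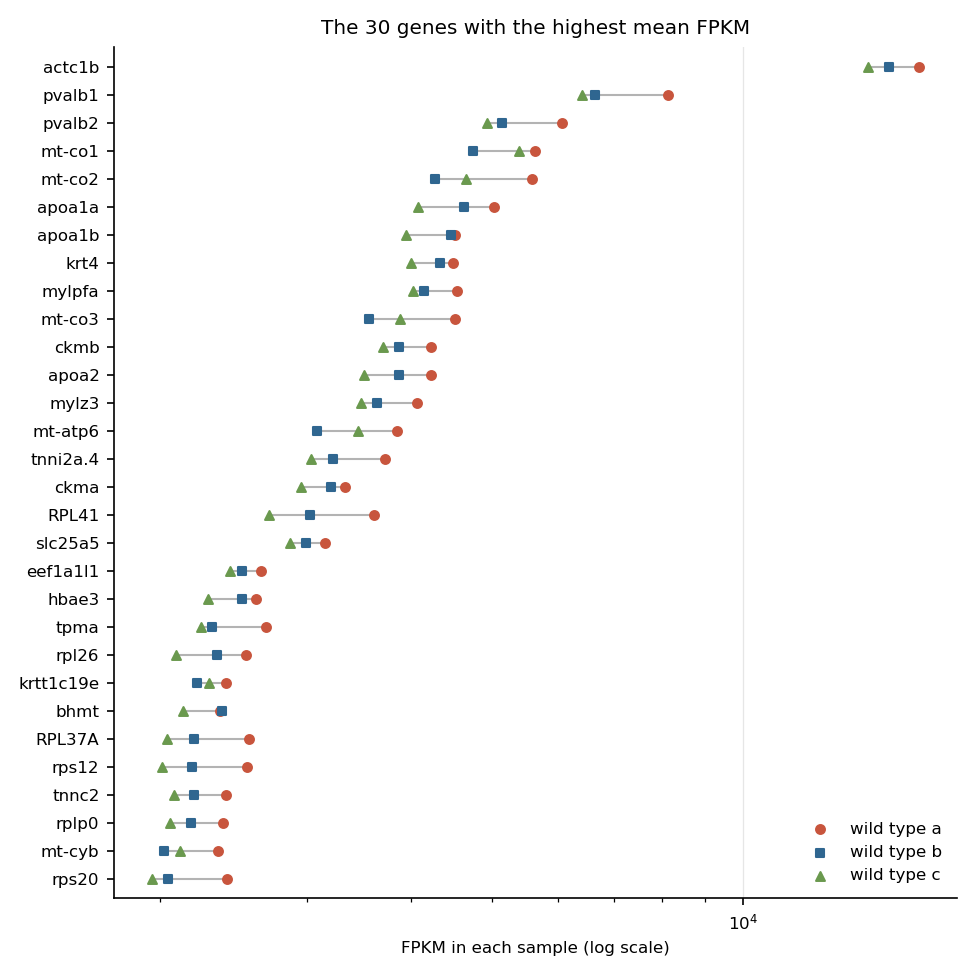
FPKM on a log axis for the 30 genes with the highest mean FPKM, 1 row per gene and 1 point for each wild type sample, with a grey line from lowest to highest. The actin actc1b lies apart at 14138 to 16252 FPKM, and samples lie close together in every row.

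Few genes carried most of the RNA. The 10, 50 and 500 genes with the most counts in each sample held 9.03 ± 0.453%, 22.6 ± 0.917% and 50.5 ± 2.05% of counts. Ranked separately by FPKM, the leading 10, 50 and 500 genes, not all the same ones, held 11.3 ± 0.443%, 28.3 ± 1.08% and 63.2 ± 1.99% of summed FPKM. The 50 leading genes by FPKM shared 47 members across all 3 samples, and the 500 leading genes shared 475. By share of counts, which favours long messages, the order changed below actc1b at 1.94 ± 0.137%. The long myosin heavy chain myhz1.1 and the calcium pump atp2a1 entered the leading 10, with 1367 ± 131 and 1715 ± 72.6 FPKM. Both were highest in c, unlike the short muscle messages above.

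Tissue make-up was described with 48 gene lists, of which 1671 of 1777 symbols matched the table. The lists differ in size and in how fully they cover a tissue, so their shares do not rank tissues by amount. Together their 1623 genes held 57.3 ± 1.58% of summed FPKM and 45.6% of counts. The 84 ribosomal protein genes took the largest share, 17.1% of summed FPKM in a, 16.0% in b and 15.16% in c. The 50 fast muscle genes took 13.1%, 12.5% and 12.3%. The 13 mitochondrially encoded genes took 5.32%, 4.72% and 5.27%, and the 93 nuclear genes of oxidative phosphorylation 3.06%, 2.82% and 2.80%. By counts the ribosomal share was 8.66 ± 0.856%, below fast muscle at 11.7 ± 0.471%, so the order of these lists depends on whether length is divided out.

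The lens list held 3.33 ± 0.0433% of summed FPKM from 67 genes. Its leading messages were the crystallins cryba4 at 1698 ± 106 FPKM, crybb1l2 at 1323 ± 114 and crygm2d13 at 1201 ± 70.5. The list holds many crygm2d genes, among which reads could have been split, so the level of crygm2d13 alone is uncertain. Yolk and lipoprotein genes took 2.72 ± 0.147%, epidermis 2.45 ± 0.0201% and liver 2.39 ± 0.0871%. The yolk and liver lists share members such as apoa1b, so part of their RNA is counted in both shares. With genes of several lists left out, yolk and lipoprotein genes held 1.222%, liver 1.304% and epidermis 2.382%. Connective tissue and bone took 0.872 ± 0.0754%, led by the collagen col1a1a at 826 ± 80.0 FPKM. Cartilage took 0.566 ± 0.0355%, led by col2a1a, the main cartilage and notochord collagen, at 714 ± 20.7.

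Lists of the nervous system held smaller shares. The 63 neuron genes held 0.519%, 0.491% and 0.579% of summed FPKM in a, b and c, led by the tubulin tubb2b at 578 ± 23.7 FPKM. Neural progenitors and radial glia held 0.25 ± 0.00522%, led by fabp7a, a brain fatty acid binding protein, at 653 ± 38.9, with the glial filament gfap at 109 ± 5.21. Myelinating glia held 0.0164 ± 0.000856%, with the myelin protein gene mbpb at 28.9 ± 1.12 FPKM and the neural crest regulator sox10 at 11.9 ± 0.243. Slow muscle, at 0.173 ± 0.00113%, was led by myl10 at 260 ± 23.2. Heart genes held 0.0316 ± 0.00110%, led by the ventricular myosin vmhc at 29.0 ± 1.55.

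Lists of pigment and immune cells held low shares. Melanophore genes held 0.0760 ± 0.00609%, led by the melanin enzyme tyrp1b at 143 ± 8.35 FPKM. Iridophore genes held 0.0789 ± 0.00601%, led by paics, a purine synthesis enzyme, at 102 ± 9.79. Neutrophil lysozyme lyz was at 69.9 ± 6.83 FPKM. The 18 lymphoid genes held 0.00194 ± 0.000209%, and 4 of them reached a mean of 1 FPKM, against 55.6% of all genes. The recombinase genes rag1 and rag2, which cut antigen receptor genes in developing lymphocytes, were at 0.793 ± 0.153 and 0.580 ± 0.197 FPKM.

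**Figure D2:**
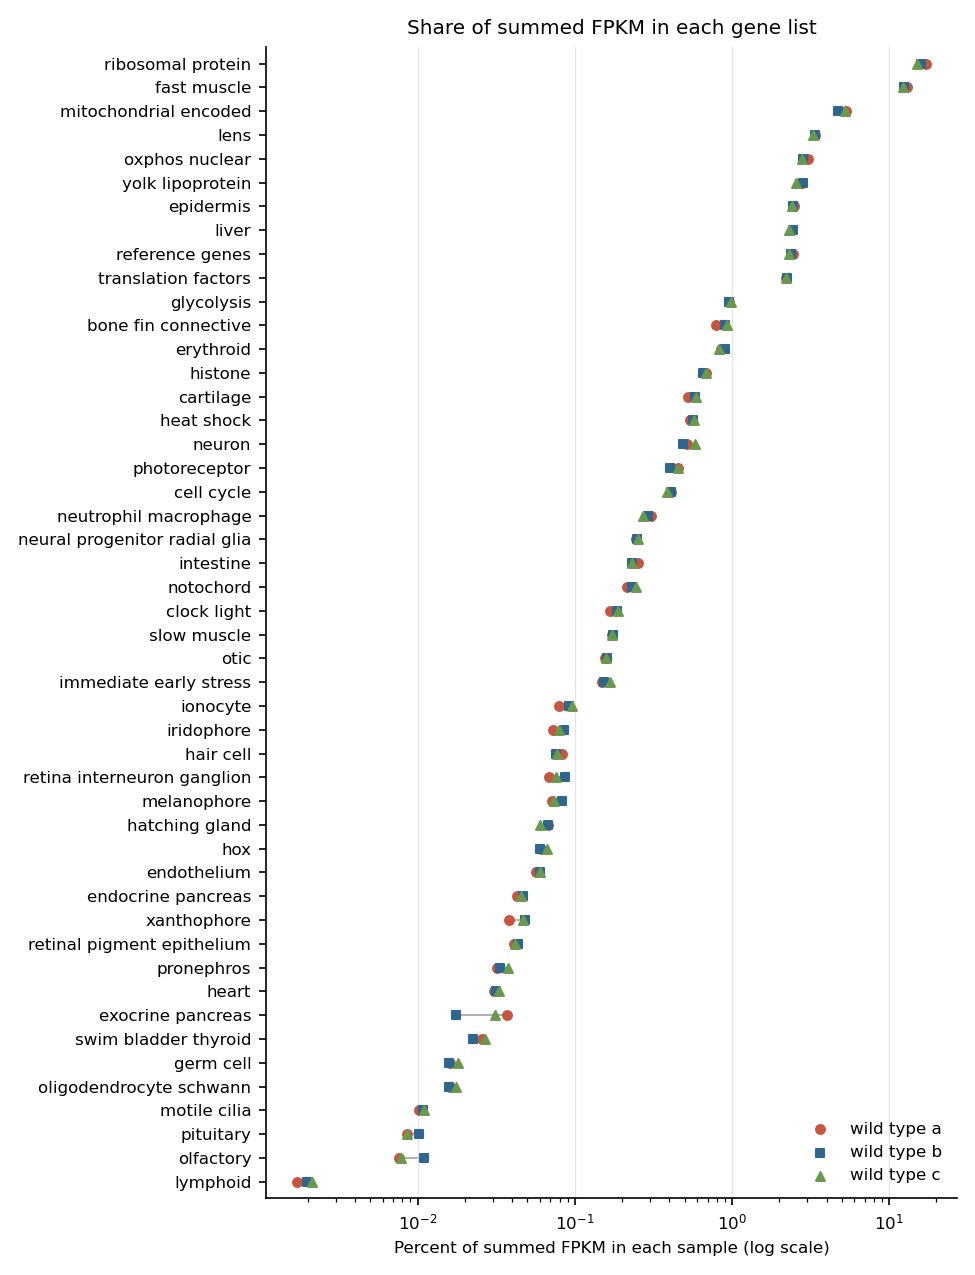
Share of summed FPKM on a log axis for each of the 48 gene lists, 1 point per wild type sample with a grey line from lowest to highest. Shares run from 15.16 to 17.1% for ribosomal proteins to about 0.002% for lymphoid genes, and exocrine pancreas shows the widest gap, from 0.0177% in b to 0.0368% in a.

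Globins and opsins differed in how evenly their members were expressed. Genes in this and later paragraphs that are neither among the 3 most abundant of a list nor its most variable member were chosen after their values were seen. Among 8 globins matched by symbol, hbae3 held 69.1% of their mean summed FPKM, followed by hbbe1.1 at 623 ± 88.8 and hbbe2 at 355 ± 9.89. The adult alpha globin hbaa1 had 2 counts in b and none in a or c. The gene ba1, which overlaps hbaa1, was not among the 8. Among opsins, the most abundant member held 31.9%. Ultraviolet-sensitive opn1sw1 was at 379, 295 and 351 FPKM and red-sensitive opn1lw2 at 335, 288 and 317. Rod rho was at 236 ± 14.1, blue-sensitive opn1sw2 at 91.7 ± 12 and green-sensitive opn1mw1 at 84.0 ± 17.1. The other green opsins were low: opn1mw2 was at 2.95 ± 0.468 FPKM, opn1mw3 had 2 counts in all and opn1mw4 had 0, where a count of 3 equals 0.197 to 0.201 CPM. Near-identical copies and overlapping genes in these families could have split reads, so single members are uncertain.

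Vitellogenins and most genes of the germ cell list were low. None of the 7 vitellogenins, egg yolk precursors made by the adult female liver, reached 1 FPKM, and the highest, vtg7, was at 0.397 ± 0.0231. Of 23 genes in the germ cell list only nanos1 reached a mean of 1 FPKM, at 80.4 ± 4.91. Of all genes in the table, 55.6% reached that mean. The germ cell helicase ddx4 was at 0.990 ± 0.330. Without nanos1 the list's share of summed FPKM fell from 0.0166% to 0.00125%. The full share therefore says little about germ cells. Of 24 endocrine pancreas genes, 20 reached a mean of 1 FPKM, against 55.6% of all genes. Among the 24, 2 are also in other lists, so the count does not describe islets alone. Insulin, ins, was at 27.2 ± 3.33. Growth hormone gh1 was at 24.6 ± 6.18 FPKM. Hox genes, which set position along the body axis, were low but broad. Among 50, 45 reached a mean of 1 FPKM, against 55.6% of all genes. The highest, hoxc8a, was at 20.5 ± 1.72.

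The spread between samples was small for most genes. The common biological coefficient of variation, the spread left after counting error, was 0.129 over 19090 genes with sufficient counts. It was 0.0781 without a, 0.149 without b and 0.148 without c. The median coefficient of variation (CV) of FPKM was 10.9% over the 16706 genes, and 6.36% without a. It narrowed with level, from 19.98% at 1 to 2 FPKM to 6.68% at 50 to 100, and was 9.0% at 1000 and above. Counting error alone gives 14.5%, 2.26% and 0.624% at those 3 levels.

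Wild type a also differed from the others by exonic gene size. Among the 1760 expressed genes with the shortest exonic size, up to 1006 bases, 61.0% were higher in a than in b and 59.3% higher than in c. Among the 1760 longest, from 5542 bases, 6.99% were higher in a than in b and 2.39% higher than in c. The median difference of a from b on the log2 scale was 0.14 for the shortest and -0.32 for the longest. Samples b and c differed less by length, with medians of 0.0019 and -0.054. Of the shortest genes 50.3% were higher in b than in c, and of the longest 34.9%. The giant muscle gene ttn.1, which encodes titin, was at 5.59, 11.8 and 13.9 FPKM in a, b and c. The cause of the length trend was not tested. Where "length-centred" appears below, each sample's median within 20 bins of exonic length was removed first. After that step 37.4% of expressed genes were highest in a, 31.5% in b and 31.1% in c, and 36.5%, 31.5% and 32% were lowest. The median CV over the 16706 genes was 10.9% before that step and 9.05% after, so much of the spread remained.

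**Figure D3:**
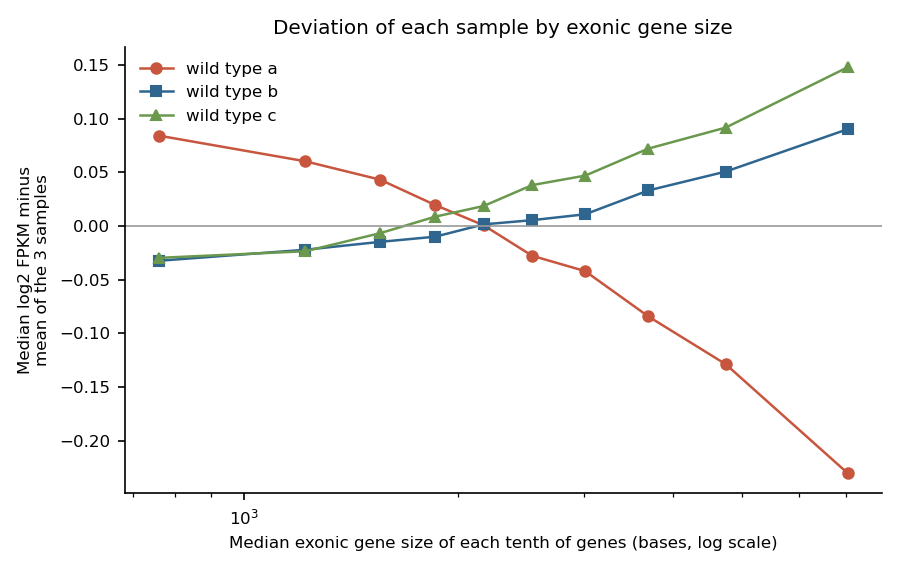
Median log2 FPKM of each sample minus the mean of the 3 samples, for 10 equal groups of the 17593 expressed genes ordered by exonic size (log axis). Wild type a runs from 0.08 for the shortest genes to -0.23 for the longest. Deviations are from the mean of the same 3 samples, so b and c together must run the other way.

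Exocrine pancreas was the tissue that differed most. Its genes encode digestive enzymes: trypsin try was at 58.1 FPKM in a, 28.8 in b and 41.9 in c. Chymotrypsinogen ctrb1 was at 31.4, 10.4 and 29.8, and the trypsin-like prss59.2 at 25.1, 10.22 and 16.0. The list's share of summed FPKM was 0.0368%, 0.0177% and 0.0309%, lowest in b. Of its 38 genes 18 were expressed, and 16 of those 18 were lowest in b, against 28.1% of all expressed genes. On CPM, counts scaled to library size with TMM factors, 12 of 18 were at least 2-fold higher in a than in b, against 0.639% of 19090 genes. The median CV of the list was 42.3%, against 10.9% over the 16706 genes at 1 FPKM in all 3 samples, and was 34.4% without a, 23.0% without b and 59.4% without c. The enzymes share 1 organ and are not independent of each other.

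Gut genes followed the same order between b and c, which are the closest pair and show the smallest length trend. Of 26 expressed intestine genes, 22 were higher in c than in b, against 55.4% of expressed genes, and 22 of 26 after length-centring, against 49.3%. Among the 34 intestine genes with sufficient counts, 8 were at least 2-fold higher in c than in b, against 0.445%. They included the chitinase chia.2 at 2.61, 1.59 and 4.90 FPKM in a, b and c, and the aminopeptidase anpepb at 1.57, 1.07 and 3.15. Both were lowest in b. The list's most abundant gene, the lipoprotein gene apoa4b.1, was at 579, 522 and 511 FPKM and did not share that order. In the swim bladder and thyroid list, 8 of 10 expressed genes were lowest in b after length-centring, against 31.5%.

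Most neuronal genes were lower in b than in c. Of 62 expressed neuron genes, 55 were higher in c than in b, against 55.4% of expressed genes, and again 55 after length-centring, against 49.3%. The median difference of b from c was -0.29 on the log2 scale. None of the 62 was 2-fold apart between these samples, where 0.346% of 19090 genes were higher in b and 0.445% in c. At such shares, the lack of calls in a list of this size says little. After length-centring, 44 of the 62 were lowest in b and 15 in a, against 31.5% and 36.5%. Synuclein sncb was at 108, 73.6 and 107 FPKM in a, b and c. The glutamate transporter slc17a6a, at 6.63, 7.51 and 11.96, was lowest in a. Photoreceptor genes were lowest in b in 25 of 44 after length-centring, against 31.5%. The cone transducin subunit gngt2b was at 488, 319 and 384 FPKM and irbp, a retinoid carrier, at 28.0, 18.7 and 31.9.

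Genes of the inner retina and of black pigment cells ran the other way. Of 26 expressed genes of retinal interneurons, ganglion cells and Müller glia, 17 were highest in b after length-centring, against 31.5%. The bipolar cell regulator vsx1 was at 22.1, 42.1 and 19.4 FPKM in a, b and c, and isl1, a LIM-homeodomain factor of several neuron types, at 17.5, 28.5 and 17.0. Outside that list, the nuclear receptor rorb was at 8.01, 22.5 and 12.7, and the G protein subunit gnb3a at 17.5, 36.4 and 13.9. Both were named with their values known, so they add nothing to the count of 17. In vsx1, isl1, rorb and gnb3a, b lay above both other samples. Of 16 melanophore genes, 14 were higher in b than in c after length-centring, against 50.7%. Tyrosinase, tyr, the first enzyme of melanin synthesis, was at 10.8, 16.0 and 12.8 FPKM, and dct at 56.0, 63.8 and 52.2.

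Growth and yolk genes ordered the samples differently. Of 83 expressed ribosomal protein genes, 80 were highest in a and 80 lowest in c after length-centring, against 37.4% and 32%. None of the 83 was 2-fold apart between any pair. Of 19090 genes, 2.21% were so for a and b, 2.17% for a and c and 0.791% for b and c. At such shares, few calls would come from a list of this size. The median CV of the 83 was 10.5%, or 5.41% without a. Of 89 genes of oxidative phosphorylation, 78 were highest in a after length-centring, against 37.4%, while 10 of 13 mitochondrially encoded genes were then lowest in b, against 31.5%. The excess in a was not particular to these lists. After length-centring, 41 of 53 epidermis and 35 of 50 fast muscle genes were also highest in a, but only 18 of 49 lens genes. Genes at 1000 FPKM or more numbered 97 in a, 75 in b and 73 in c. Of 20 yolk and lipoprotein genes, 17 were lowest in c after length-centring, against 32%, and 19 were higher in b than in c, against 50.7%. Of 53 cell cycle genes, 41 were higher in b than in c after length-centring, against 50.7%. The ribonucleotide reductase rrm2 was at 20.1, 12.8 and 10.8 FPKM in a, b and c.

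Hatching enzymes, proteases that dissolve the egg envelope, were also highest in a and lowest in c. Their levels were 61.7, 45.7 and 24.5 FPKM for he1a and 9.72, 8.59 and 2.47 for he1b in a, b and c. Both lie on chromosome 22 and overlap each other, so their reads cannot be fully separated. The myeloid list's carboxypeptidase cpa5, known from mast cells, was at 22.1, 8.87 and 12.7. Among the 47 expressed immediate early and stress genes, fosab, an early response transcription factor, varied most at 8.59, 7.77 and 13.7 FPKM. The comparison of samples shown differed from list to list and was not set beforehand. What set these orders of the samples was not tested.

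**Figure D4:**
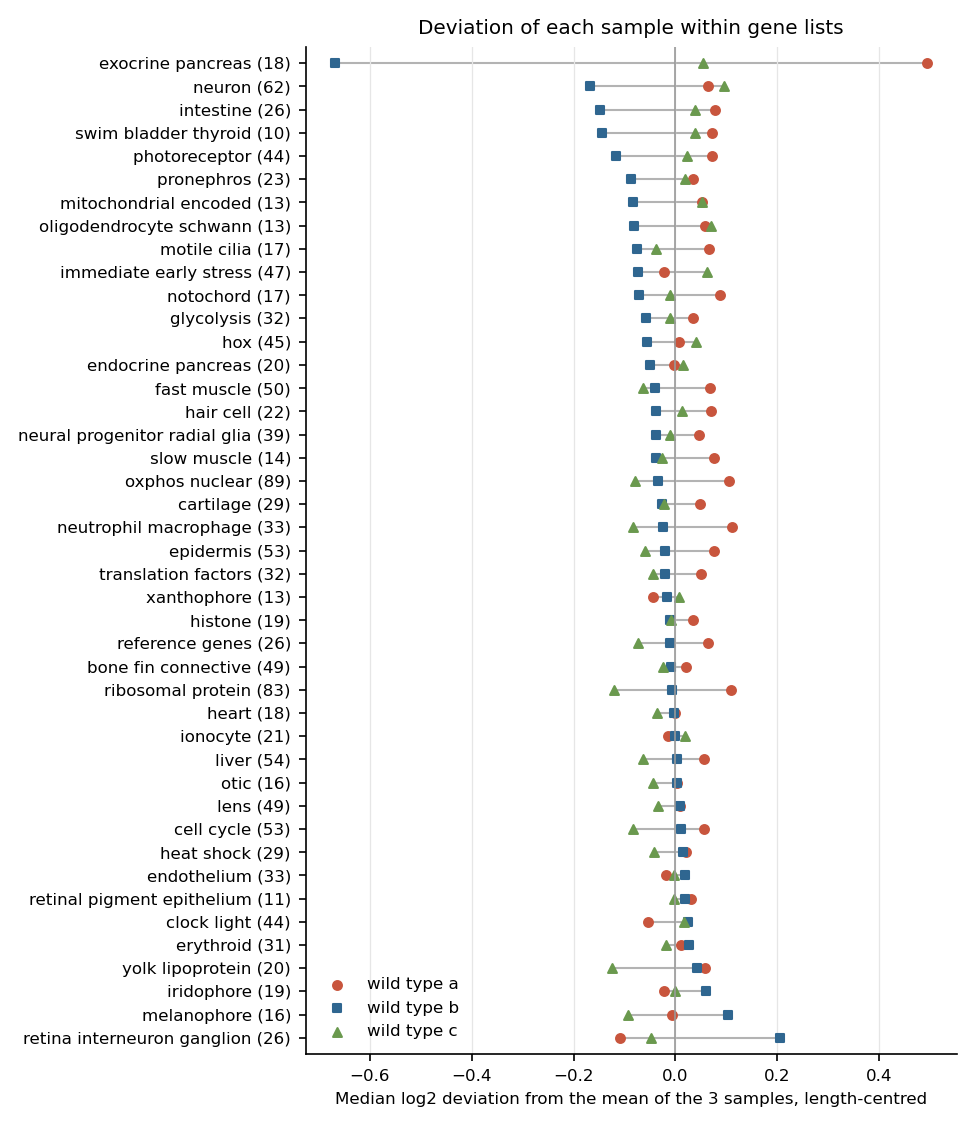
Median length-centred log2 deviation of each wild type sample from the mean of the 3, for the 43 lists with at least 10 expressed genes (number in brackets), ordered by wild type b. Exocrine pancreas spans the widest range. Neuron, intestine, and swim bladder and thyroid lists lie low in b, and retinal interneuron and melanophore lists lie high in b.

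Between pairs of samples, few genes were 2-fold apart on TMM-scaled CPM. Of 19090 genes, 122 (0.639%) were at least 2-fold higher in a than in b and 300 (1.57%) in b than in a. Between a and c, 85 (0.445%) were higher in a and 330 (1.73%) in c. Between b and c, 66 (0.346%) were higher in b and 85 (0.445%) in c. The widest gene with a mean of at least 5 FPKM and 100 counts was a copy of Metazoa_SRP, the RNA of the signal recognition particle, at 59.8, 9.45 and 4.4 FPKM in a, b and c. The widest gene above 100 FPKM was zgc:158463, at 1084, 390 and 257. It lies on chromosome 5, 65 bases from an annotated ribosomal RNA gene on the same strand. That neighbour had 2 counts in total over the 3 samples. Metazoa_SRP and zgc:158463 were both highest in a, and the cause was not tested.

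The beta globin hbbe1.2 was at 47.8, 196 and 114 FPKM, lowest in a. It overlaps hbbe1.1 on chromosome 3, and its part of the counts of both genes was 4.33%, 15.7% and 12.3%. Of the 20 widest genes from 5 FPKM, 13 were lowest in a, where 48.8% of expressed genes were lowest. The transcription factor znf704 was at 2.09, 5.61 and 7.31 FPKM, the signalling ligand wnt9a at 2.95, 8.55 and 7.90, and the fibrillin fbn2b at 19.9, 57.0 and 52.5. The potassium channel kcnc3a was at 3.74, 7.27 and 9.88. Among genes above 100 FPKM, the lens crystallin crybgx was at 143, 87.5 and 126 and the apolipoprotein B gene apobb.1 at 385, 541 and 481.

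**Figure D5:**
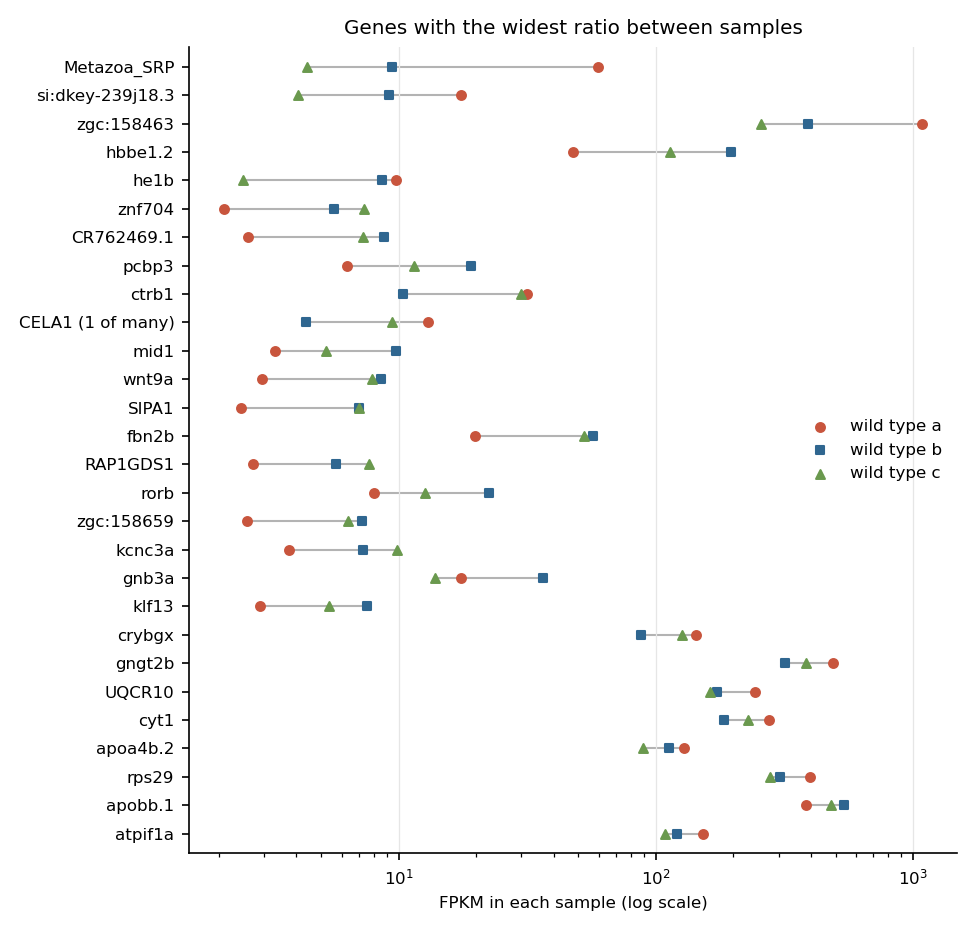
FPKM on a log axis for the 28 genes with the largest ratio of highest to lowest sample, the upper 20 from a mean of at least 5 FPKM and the lower 8 from a mean of at least 100 FPKM. Metazoa_SRP spans 4.4 to 59.8 FPKM, and wild type a is at 1 end of most rows.

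Other messages were nearly constant in FPKM. Among the 2364 genes averaging 1000 counts or more, the smallest CV was that of eif4ebp2, a translation repressor, at 75.8, 75.9 and 75.9 FPKM (CV 0.118%). The membrane linker msna was at 48.9, 49.1 and 49.0 (CV 0.215%), and the initiation factor eif5b at 23.4, 23.4 and 23.3 (CV 0.243%). The chaperone hsp90ab1 kept 752, 757 and 758 FPKM (CV 0.425%). These CVs lie below counting error and were picked as the lowest of many, so such closeness need not recur. They also hold only for FPKM, which is scaled by total count. The TMM factors of a, b and c were 0.964, 1.01 and 1.03, so such values would lie further apart under TMM scaling.

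Genes often used as references differed from each other in the CV of FPKM, which here too depends on scaling by total count. The lowest CVs among 26 were 1.57% for sdha, a succinate dehydrogenase subunit, 2.4% for lsm12b, 2.45% for mob4 and 2.46% for actb2. The elongation factor eef1a1l1 had a CV of 4.39% and gapdh of 8.11%. Ribosomal references were wider, with rps18 at 391 to 478 FPKM and rpl13a at 377 to 464. The widest were gusb at 17.9% and b2m at 22.2%, the latter resting on 48, 30 and 39 counts.

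Teleost fish kept many duplicated genes from an ancient genome duplication, and symbols ending in a and b often name such copies. Of 2584 pairs named so, 1759 had counts for both copies and at least 5 FPKM in the higher. The higher copy exceeded the lower by a median of 2.48-fold (quartiles 1.56 and 5.0). In 696 pairs (39.6%) the copies lay within 2-fold, and in 222 (12.6%) they differed at least 10-fold. The order of the copies was the same in all 3 samples for 1637 pairs (93.1%). The shared ending alone does not show common descent, and 692 pairs held a gene that overlaps another.

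Muscle and lipid genes led these pairs. The actin actc1b stood above actc1a at 335 ± 56.8 FPKM, and acta1b at 1800 ± 109 above acta1a at 240 ± 24.2. Copies of apoa1 and of muscle creatine kinase were close, as given above, while mylpfb reached 1530 ± 159 FPKM beside mylpfa. The most unequal pair was nid2a and nid2b, basement membrane nidogens, with 7174 and 3 counts over the 3 samples. Per length the ratio was 1520, with an exact 95% interval of 520 to 7374 that covers counting error only. The alcohol dehydrogenase adh8b had 5753 counts against 9 for adh8a, a ratio of 524 per length (276 to 1148). The lower copies of the other 3 most unequal pairs, gtf2f2b, senp6b and cpdb, had 1, 2 and 2 counts.

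Chromosome 4 had the lowest share of expressed genes. Of its 3105 genes, 18.2% were expressed, and it gave 1.91 ± 0.0348% of counts. On the other nuclear chromosomes the expressed share was higher, up to 67.9% on chromosome 23. Mitochondrial DNA, with 37 genes, gave 2.65 ± 0.229% of counts and 5.15 ± 0.336% of summed FPKM.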

How the data were processed

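The authors deposited 1 table with read counts and FPKM per gene and sample, exonic sizes and coordinates. The deposited counts are whole and not normalized. The deposited FPKM equal count divided by exonic size and by the sample's total count, as recomputed from the table. The submitters' processing notes name Salmon 1.9.0, STAR 2.7.10a, fastp 0.23.2 and bcl2fastq 2.20.0.422 without roles. No source used here gives the counter or the genome build. The library kit named in the labels' protocols carries no directional mark, and the strand setting of the counts is not given. Genes whose span overlaps another gene (31.9% of the table, 25.3% of expressed genes) may therefore share reads. Of these 10079 genes of the table, 6238 overlap a gene on the other strand.

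The biological coefficient of variation came from edgeR 4.0.16 in R 4.3.3, with TMM scaling, filterByExpr (minimum count 10, minimum total 15) and a single intercept. Its recovery was checked on simulated data with the same spread for every gene and sample and no length trend. The check therefore does not cover a sample that stands apart, as wild type a does. DESeq2 1.42.0 served as an alternative. Pairwise ratios used CPM with a prior count of 2. Deviations used log2(FPKM + 0.1). Shares, CVs and list counts were computed in Python 3.11.15. Only 3 samples set every SD. Named genes were the 30 highest by FPKM, 10 highest by counts, 20 and 10 widest, 10 most constant, the 3 leading and the most variable of each list, 5 and 5 paralog pairs, and reference genes. Some other named genes, such as rag1 and rag2, fall outside these rules. The members and lists were chosen with earlier results of these data known. Of 31624 identifiers, 26154 were in the gene name table.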

Additional observations from a re-analysis of the deposited data

How the results depend on the processing

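No paired analysis was possible because a single group is described. Genes at 1 FPKM in every sample numbered 16706, and 16856 to 17148 with 1 sample left out. The exocrine pancreas share was 0.0243 to 0.0338% with 1 sample left out. Counting the leading 50 by FPKM gave 28.3% in place of 22.6%, and leaving out 1 sample gave 22.1 to 22.9%. The biological coefficient of variation of 0.129 became 0.0827 as the median gene-wise DESeq2 value, and ranged from 0.0781 to 0.149 with 1 sample left out. The median CV was 8.51% at 5 FPKM or more, 16.0% with no filter, 9.05% after length-centring, and 6.36 to 10.6% with 1 sample left out. Genes 2-fold apart numbered 422 between a and b, 415 between a and c and 151 between b and c. With a prior count of 10 they numbered 206, 208 and 48. At a mean count of at least 50 they numbered 233, 210 and 42, and with no filter 2035, 1799 and 1429. Centred within 20 bins of exonic length, these counts were 437, 407 and 156, close to those without centring. As percent of counts, the shares were 8.66% for ribosomal proteins, 11.7% for fast muscle, 2.61% for mitochondrially encoded genes and 0.0178% for exocrine pancreas. Without its most abundant member, fast muscle held 9.76% and mitochondrially encoded genes 4.1%. The median CV ranged from 23.0 to 59.4% for exocrine pancreas and from 5.41 to 14.1% for ribosomal proteins with 1 sample left out. Paralog pairs past 10-fold numbered 222, against 441 past 5-fold, 128 without overlapping genes, and 222 to 231 with 1 sample left out. The cause was not tested in any of these. The length-centred alternatives, the mean filter, the omission of zgc:158463 and the paralog subsets were chosen after seeing the data. Genes at 1 to 2 FPKM had a median of 47.3 counts, where counting error alone gives a CV of 14.5%.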
